A study of Mus musculus with 8 samples.

Results

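Basophils and mast cells were taken from single-cell mRNA counts of tumour-bearing mouse liver as the barcodes with a UMI (a unique molecular identifier, which marks 1 captured RNA molecule) in at least 2 of 5 marker genes. The markers were Cpa3, Fcer1a, Mcpt8, Ms4a2 and Cd200r3, and no UMI was allowed in Cd3e, Cd79a, C1qa or Flt3, which mark T cells, B cells, macrophages and dendritic cells or progenitors. Barcodes were kept from 500 UMIs and 300 genes upward, with no more than 20% of UMIs from mitochondrial genes. Of the 21482 kept, 232 met the rule (1.08%), and they are called members below. The knockout group was Ncr1iCre, Nr4a1fl/fl, in which Cre is made by cells that use the Ncr1 promoter, NK cells and type 1 innate lymphoid cells above all. The control group was Nr4a1fl/fl with a wild-type Ncr1 locus and no Cre, so both groups carried the floxed allele. In both, liver tumours were started in male C57BL/6 mice of 8 to 10 weeks by hydrodynamic tail vein injection of plasmids with CRISPR-Cas9 and a guide against Trp53, a c-Myc transposon and its transposase. Livers were taken 4 to 5 weeks later and dissociated with enzymes. Each group had 3 droplet libraries of the 3′ ends of mRNA. The libraries numbered 3 pooled 2 mice (knockout) and 3 mice (control), and the number of mice behind the others is not given in the sources used here.

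Basophils and mast cells are rare granulocytes that carry the high-affinity receptor for IgE. Antigen that crosslinks receptor-bound IgE makes them release histamine and proteases stored in granules, then lipid mediators, cytokines and chemokines. Basophils mature in bone marrow and circulate, while mast cells mature in tissue, where they depend on stem cell factor and its receptor Kit. Nr4a1 encodes a nuclear receptor that is induced within minutes of many stimuli.

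Knockouts 1, 2 and 3 kept 2777, 134 and 5197 barcodes, against 2697, 549 and 10128 in controls 1, 2 and 3. Knockout 2 was the poorest library, with a median of 75.1% mitochondrial UMIs in its barcodes over 500 UMIs. Control 2 had 27.9%, and the other libraries 6.68% to 10.0%. Members held a median of 3735, 2598 and 3304 UMIs in knockouts 1, 2 and 3, against 3076, 2761 and 4837 in controls 1, 2 and 3. Summed over members, the libraries held 262987, 5196 and 269965 UMIs in knockouts 1, 2 and 3, against 254476, 85521 and 372737 in controls 1, 2 and 3. A single member of 121472 UMIs made up 47.7% of the sum in control 1, and 1 of 61567 UMIs made up 23.4% in knockout 1. The gene-by-gene test of the genotypes was therefore also run without members over 15000 UMIs, of which there were 11. The summed levels and ratios given below include these members unless stated. No barcode sequence was shared by members of different libraries, and 1 member shared its sequence with a kept barcode of another library.

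The label of the population was checked against genes that the rule did not use. Hdc, which makes histamine, had a UMI in 94.0% of members and 6.67% of the other kept barcodes. Gata2, a transcription factor needed for both lineages, was found in 88.8% of members and 1.08% of the others. Either gene was found in 227 of the 232 members. Of the eosinophil markers, Epx and Prg2 had no UMI in any member. A count of 0 of 232 allows a share of members with a UMI of up to 1.29%, which is no limit on cells that express the gene. Siglecf had 1 or more UMIs in 6.03% of members and Ccr3 in 8.62%. The members just inside the rule, with 2 marker genes (n = 33), held Hdc in 84.8% and Gata2 in 75.8%. The 126 barcodes just outside, with 1 marker gene, held Hdc in 37.3% and Gata2 in 13.5%. The genes that excluded other cell types removed 21 barcodes.

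Members made up 1.51%, 1.49% and 1.06% of the kept barcodes of knockouts 1, 2 and 3, from 42, 2 and 55 members. In controls 1, 2 and 3 they made up 1.48%, 5.65% and 0.612%, from 40, 31 and 62 members. Control 2 stood above every other library and control 3 below, so the control libraries enclosed all 3 knockout libraries. The mean was 1.35% ± 0.257 in knockout libraries and 2.58% ± 2.69 in control libraries (SD, n = 3 each). The difference of -1.23 percentage points was within the spread between libraries (exact two-sided permutation test, p = 0.9, where 0.1 is the smallest p that 3 against 3 libraries allow). Without control 2 the difference was 0.307 percentage points, with knockouts higher. As nothing in the labels says how many animals stand behind most libraries, this p measures the spread between libraries, which may be technical.

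**Figure D1:**
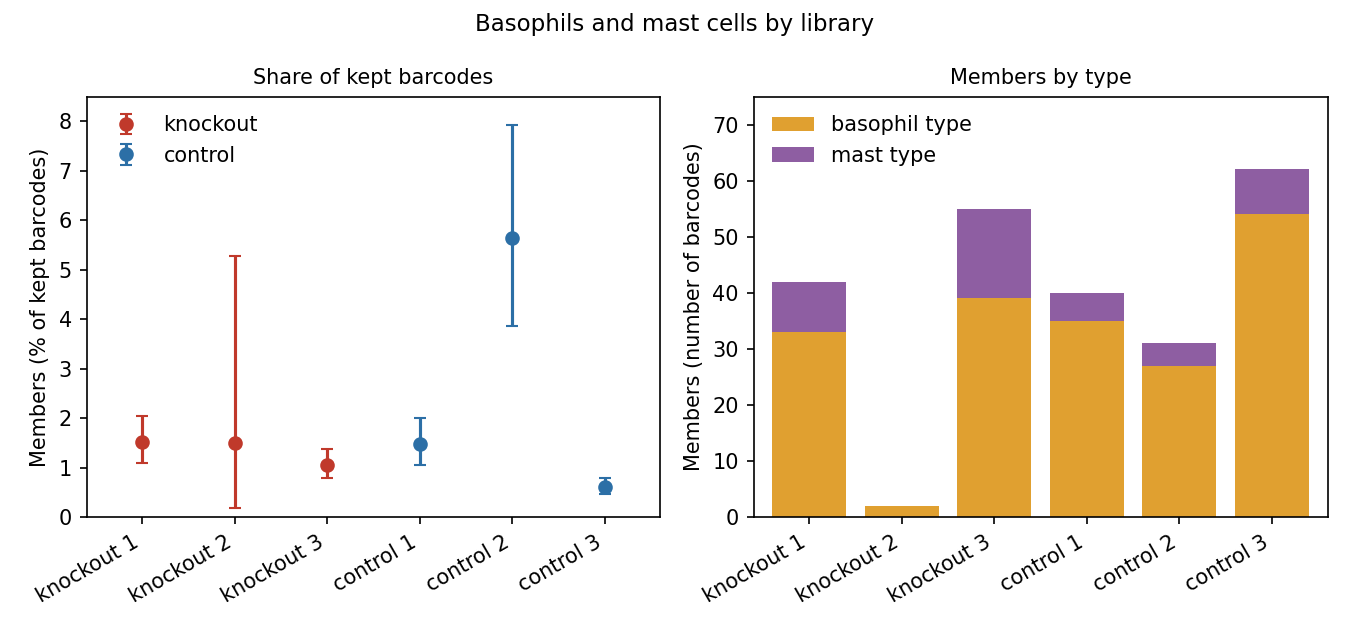
Left, members as a percentage of the kept barcodes of each library, with 95% Clopper-Pearson intervals that cover counting error only (knockout red, control blue). Right, the number of members of each library, split into basophil type and mast type. Control 2 had the highest share, 5.65%, and mast-type members were found in every library except knockout 2, which had 2 members.

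Hashtag counts in the libraries numbered 3 separated the mice in part. In knockout 3, the mouse with tag B0310 had 15 members among 1018 barcodes (1.47%) and the mouse with tag B0311 had 2 among 1504 (0.133%). In control 3, the mice with tags B0310, B0311 and B0312 had 8 of 2987 (0.268%), 20 of 3296 (0.607%) and 6 of 903 (0.664%). The mice of knockout 3 thus lay farther apart than the means of the genotypes. A further 37 members of knockout 3 and 21 of control 3 could not be given to 1 mouse, and 1 and 7 carried several tags.

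The members fell into 2 types by the mast cell markers Kit, Cma1, Mcpt4, Tpsb2, Tpsab1, Mcpt1, Mcpt2, Mrgprb1 and Mrgprb2. Of the 232 members, 187 had a UMI in none of these 9 genes, 3 had 1, none had 2, and 42 had between 3 and 8. The 42 are called mast type and the other 190 basophil type. The second name rests on having fewer than 3 mast cell markers, so it can be wrong for single members. A knockout 3 member of basophil type held 59 UMIs of S100a8, a neutrophil marker, with 1 of Cpa3 and 1 of Ms4a2. The split into types was made after the values were seen, so differences between the types are given as descriptions with no test. Their depth differed by library. Mast-type members had medians of 2817 and 2984 UMIs in knockouts 1 and 3, against 6547, 5187 and 9933 in controls 1, 2 and 3. Basophil-type members had 3779 and 3736 in knockouts 1 and 3, against 3072, 2750 and 4552 in controls 1, 2 and 3. With each member thinned to 1000 UMIs, which left out 2 mast-type and 8 basophil-type members, the order of the types was kept for 44 of 47 genes described. The exceptions were Hdc (92.5% of mast-type and 88.5% of basophil-type members after thinning), Gata2 (62.5% and 62.6%) and Il4 (10 of 40 and 45 of 182). The shares below are unthinned.

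The promoters of 4 genes are shown because these genes define the members or separate the types. Cpa3 (carboxypeptidase A3) and Ms4a2 (the beta chain of the IgE receptor) are shared. Mcpt8 is a gene of the rule and a protease known from basophils, though it was found in both types here. Cma1 (chymase) is a mast cell protease. Each line gives the 250 bases before the gene's start from RefSeq, build GRCm38.p6, 5′ to 3′ on the minus strand: chr3:20242182-20242431, chr19:11623720-11623969, chr14:56085198-56085447 and chr14:55944676-55944925, in the order of the lines. Capitals mark the letters AGATAA as well as TGATAA, and also AGATAG together with TGATAG, on either strand, the core that GATA factors such as Gata2 recognise.
Cpa3: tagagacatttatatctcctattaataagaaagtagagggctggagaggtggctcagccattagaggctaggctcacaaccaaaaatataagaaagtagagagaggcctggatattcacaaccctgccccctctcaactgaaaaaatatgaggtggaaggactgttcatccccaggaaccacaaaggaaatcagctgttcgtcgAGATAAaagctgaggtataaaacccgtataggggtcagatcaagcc
Ms4a2: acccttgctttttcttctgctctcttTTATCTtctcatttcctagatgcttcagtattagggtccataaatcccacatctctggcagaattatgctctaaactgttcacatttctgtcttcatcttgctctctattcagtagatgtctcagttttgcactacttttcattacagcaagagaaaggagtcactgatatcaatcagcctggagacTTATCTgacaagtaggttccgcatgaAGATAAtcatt
Mcpt8: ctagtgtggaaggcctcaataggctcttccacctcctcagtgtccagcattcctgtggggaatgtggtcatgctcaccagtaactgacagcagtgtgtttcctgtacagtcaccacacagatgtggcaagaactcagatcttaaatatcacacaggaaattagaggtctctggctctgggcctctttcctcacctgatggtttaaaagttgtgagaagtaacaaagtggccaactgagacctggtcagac
Cma1: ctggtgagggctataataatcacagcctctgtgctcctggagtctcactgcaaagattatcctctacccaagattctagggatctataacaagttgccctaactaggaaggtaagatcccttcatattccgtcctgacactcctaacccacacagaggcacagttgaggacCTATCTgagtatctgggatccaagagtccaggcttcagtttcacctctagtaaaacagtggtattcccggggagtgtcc
The motif occurs 1 time before Cpa3, 3 times before Ms4a2, 0 times before Mcpt8 and 1 time before Cma1. Of all 32851 promoter windows of this length, 26.5% hold it, and no binding was measured.

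Receptor genes for IgE were detected in both types. Fcer1a, the IgE-binding chain, had a UMI in 92.9% of mast-type and 70.5% of basophil-type members, and Fcer1g, the shared signalling chain, in 92.9% and 95.3%. Ms4a2 was found in 57.1% of mast-type and 83.2% of basophil-type members. Among T-type barcodes (n = 4453, median 5238 UMIs), Fcer1a was found in 0.180% and Ms4a2 in 0.225%. These 2 genes and Cd200r3 are among the 5 that chose the members, so their shares in members are a description. Fcer1g, which other leukocytes use, was found in 21.2% of them. Cd200r3, an activating member of the CD200 receptor family, was found in 83.3% of mast-type and 92.6% of basophil-type members. Its relatives were less frequent, with Cd200r1, the inhibitory receptor, in 40.5% and 54.2% and Cd200r4 in 54.8% and 24.7%.

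Of the granule proteases, Mcpt4, Cma1, Tpsb2 and Mcpt1 are among the 9 genes that define the types, so their division between the types was set by the split. Mast-type members held Mcpt4 and Cma1, both chymases of connective tissue mast cells, in 95.2% each, and the tryptase Tpsb2 in 97.6%. Basophil-type members held Mcpt4 in 0.526% and neither of the others (0 of 190 allows a share of up to 1.58%). All 3 genes were found together in 38 of the 42 mast-type members. Mcpt1, a chymase of mucosal mast cells, was found in 13 of the 42, each of which also held Mcpt4. Of its 1053 UMIs, 498 came from 1 cell of knockout 1, which held 364 UMIs of Mcpt2, 1 of Mcpt4 and 0 of Tpsb2. The balance of the 2 chymases varied among the others. A knockout 3 member held 1 UMI of Mcpt1 and 517 of Mcpt4, and a control 3 member held 169 and 606. The share of mast-type members with Mcpt1 was 3 of 9 and 6 of 16 in knockouts 1 and 3. In controls 1, 2 and 3 it was 2 of 5, 0 of 4 and 2 of 8. Cpa3 was found in every mast-type member and in 71.1% of basophil-type members, and its mean level was 130 and 5.86 UMIs per 10000. Mcpt8, like Cpa3 a gene of the rule, was found in 33.3% of mast-type and 57.4% of basophil-type members, and in 0.135% of T-type barcodes. These proteases belong to families of similar genes, and how reads shared between copies were counted is not given in the sources used here.

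**Figure D2:**
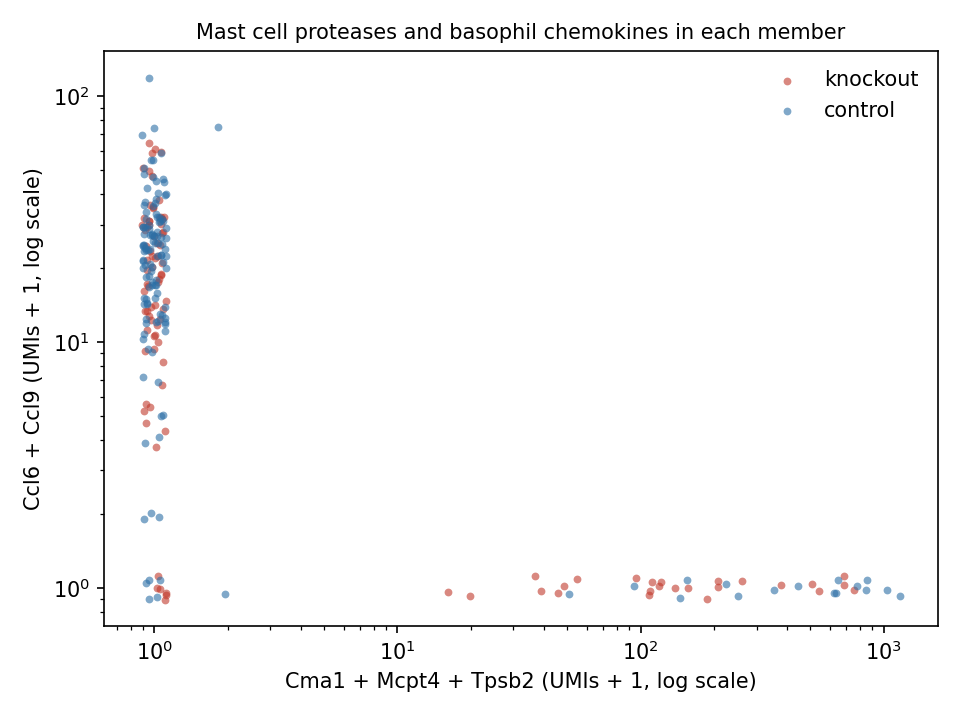
Each point is 1 member, with the summed UMIs of the mast cell proteases Cma1, Mcpt4 and Tpsb2 on the horizontal axis and of the chemokines Ccl6 and Ccl9 on the vertical axis, both plus 1 on log scales and with a small random shift (knockout red, control blue). The 42 mast-type members lie along the lower edge, with no UMI of either chemokine, and both genotypes are found in both arms.

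Chemokine genes, which the split did not use, also differed between the types. Ccl6 and Ccl9, which attract myeloid cells, were found in 0 of 42 mast-type members, which allows a share of up to 7.14%, and in 90.0% and 85.8% of basophil-type members. In basophil-type members Ccl6 was found in 87.9% and 87.2% in knockouts 1 and 3, against 91.4%, 88.9% and 94.4% in controls 1, 2 and 3. Ccl2 and Ccl7, which attract monocytes, showed the reverse, with a UMI in 95.2% and 54.8% of mast-type members and 0 of 190 basophil-type members. Ccl2 was found in 8 of 9 and 15 of 16 mast-type members of knockouts 1 and 3, and in 5 of 5, 4 of 4 and 8 of 8 of controls 1, 2 and 3. Ccl3, an inflammatory chemokine, was found in 14.3% of mast-type and 86.3% of basophil-type members, and its relative Ccl4 in 50.0% and 72.6%. Ccl3 and Ccl4 were also found in 17.3% and 36.5% of T-type barcodes, so these 2 are not particular to the members.

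Mediator genes were partly shared. Hdc was found in 92.9% of mast-type and 94.2% of basophil-type members, and Slc18a2, which loads histamine into granules, in 42.9% and 45.8%. Hdc was also found in 82.8% of neutrophil-type barcodes, whereas Slc18a2 was found in 1.22% of them. Of the leukotriene pathway, Alox5 was found in 66.7% of mast-type and 41.1% of basophil-type members, and Alox5ap, which presents its substrate, in 59.5% and 94.2%. Hpgds, the haematopoietic prostaglandin D synthase, was found in 76.2% of mast-type and 0.526% of basophil-type members. Alox15 was found in 0 of 42 mast-type and 33.2% of basophil-type members. Cyp11a1, the enzyme that opens steroid synthesis by cutting the cholesterol side chain, was found in 71.4% of mast-type and 82.6% of basophil-type members. Only 0.254% of the other kept barcodes held Cyp11a1.

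Of the cytokine genes, Il4, the type 2 cytokine, was found in 50.0% of mast-type and 58.9% of basophil-type members and in 6.92% of T-type barcodes. Il6 was found in 19.0% of mast-type and 44.7% of basophil-type members, against 0.292% of T-type barcodes. In basophil-type members, 57 of 190 held both Il4 and Il6, 28 held Il6 without Il4, and 50 held neither. Among mast-type members Il4 was uneven, since 4 cells with 10 or more UMIs held 145 of its 184 UMIs. It was found in 7 of 9 and 3 of 16 mast-type members of knockouts 1 and 3, against 1 of 5, 3 of 4 and 7 of 8 of controls 1, 2 and 3. Libraries of either genotype thus had both low and high shares. Il13 was found in 3.45% of members, and Il5 and Areg in none. Csf1, the macrophage growth factor, was found in 26.2% of mast-type and 83.7% of basophil-type members, and Hgf, hepatocyte growth factor, in 11.9% and 80.0%. In basophil-type members Hgf was found in 78.8% and 76.9% in knockouts 1 and 3, against 71.4%, 92.6% and 81.5% in controls 1, 2 and 3. Hgf was found in 3.75% of T-type and 5.22% of neutrophil-type barcodes.

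**Figure D3:**
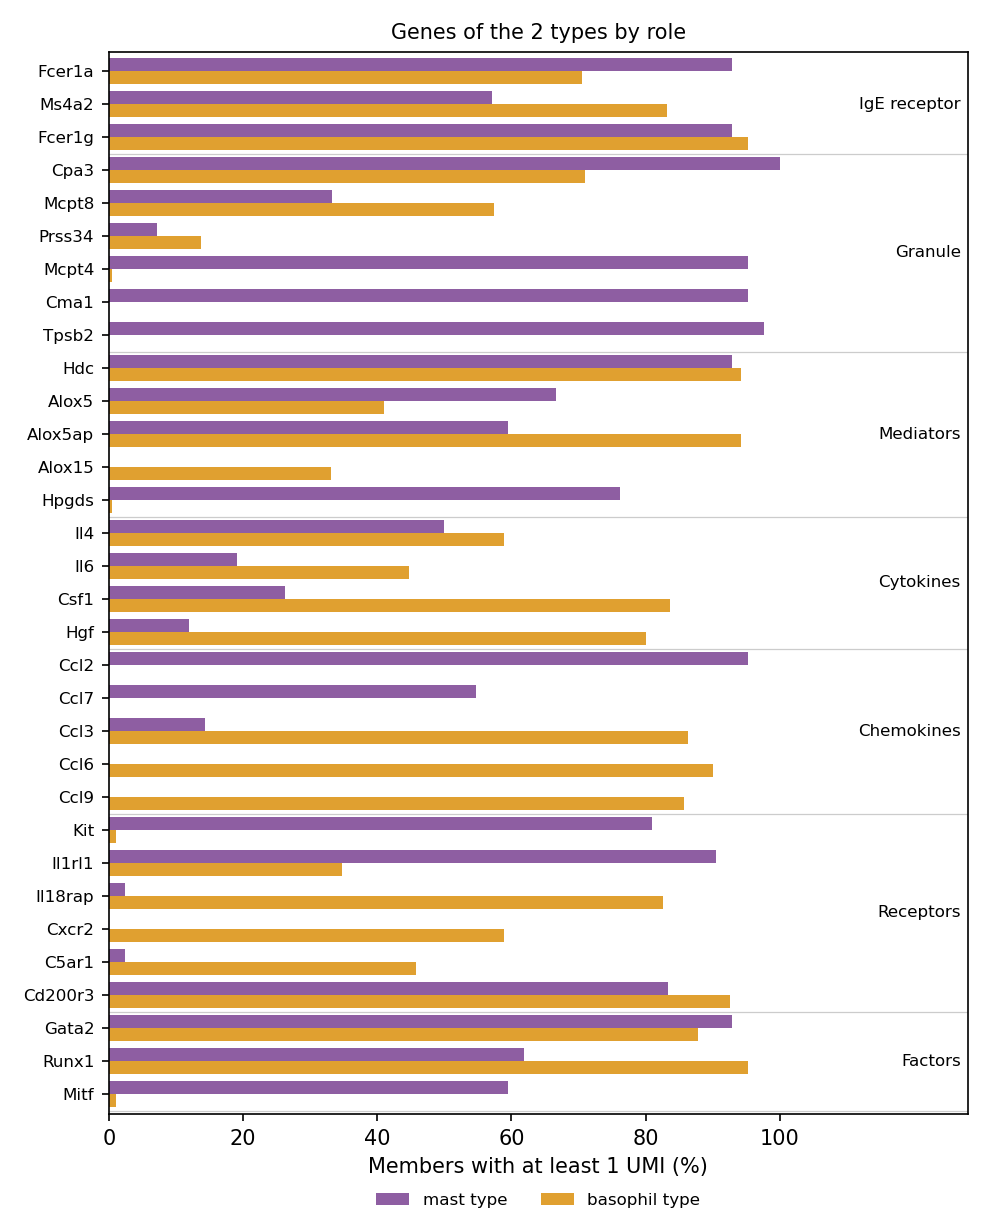
Percentage of mast-type (n = 42, purple) and basophil-type (n = 190, orange) members with at least 1 UMI of each gene, grouped by role. The IgE receptor genes, Hdc and Gata2 were found in most members of both types, Ccl2, Ccl7 and the proteases Mcpt4, Cma1 and Tpsb2 almost only in mast-type members, and Ccl6, Ccl9 and Cxcr2 only in basophil-type members.

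Several receptors and transcription factors were found mainly in 1 type. Kit, which is among the genes that define the types, was found in 81.0% of mast-type and 1.05% of basophil-type members. Mitf, a transcription factor that mast cells need and that the split did not use, was found in 59.5% and 1.05%. Il1rl1, the receptor for IL-33, was found in 90.5% of mast-type and 34.7% of basophil-type members. The reverse held for Il18rap, a chain of the IL-18 receptor (2.38% and 82.6%), for C5ar1, the complement C5a receptor (2.38% and 45.8%), and for the chemokine receptor Cxcr2 (0 of 42 and 58.9%). Itgam, an adhesion molecule of circulating leukocytes, was found in 0 of 42 mast-type members and in 43.2% of basophil-type members. Runx1, which basophils need, was found in 61.9% of mast-type and 95.3% of basophil-type members, and Cebpa, a granulocyte factor, in 0 of 42 and 38.9%. Gata2 did not follow this division, with 92.9% and 87.9%.

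Mast-type members numbered 9, 0 and 16 in knockouts 1, 2 and 3, against 5, 4 and 8 in controls 1, 2 and 3. They made up 21.4% of the members of knockout 1 (95% Clopper-Pearson interval 10.3% to 36.8%) and 29.1% of those of knockout 3 (17.6% to 42.9%). Shares in controls 1, 2 and 3 were 12.5% (4.19% to 26.8%), 12.9% (3.63% to 29.8%) and 12.9% (5.74% to 23.9%). These intervals overlap, knockout 2 with 2 members says little, and no test was made. Of all kept barcodes, mast-type members made up 0.324%, 0% and 0.308% in knockouts 1, 2 and 3, against 0.185%, 0.729% and 0.0790% in controls 1, 2 and 3. Fewer mast-type cells in a library and fewer recovered after dissociation cannot be told apart.

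Nr4a1, the floxed gene, was found in members of both genotypes. Members of knockouts 1, 2 and 3 held 37, 0 and 13 UMIs of Nr4a1, against 32, 2 and 50 in controls 1, 2 and 3. Its level was 94.4 ± 65.4 CPM (summed UMIs scaled to the library's sum over members) in knockouts 1 and 3 and 94.4 ± 61.7 CPM in controls (SD, n = 2 and 3). The log2 fold change of -0.13 had an SE of 0.66 (adjusted p = 0.999 by edgeR's quasi-likelihood test). Reads from the 3′ end do not show whether the floxed part was removed. Nr4a1 was found in 57.1% of mast-type and 9.47% of basophil-type members. Mast-type members with Nr4a1 numbered 7 of 9 and 7 of 16 in knockouts 1 and 3, against 3 of 5, 0 of 4 and 7 of 8 in controls 1, 2 and 3. Ncr1 had 4 UMIs in 1 member of knockout 3 and 15 UMIs in 4 control members. The related Nr4a2 and Nr4a3 were found in 5.17% and 4.74% of members.

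For the comparison of genotypes gene by gene, UMIs were summed over members per library, and libraries with at least 10 members entered, which left knockouts 1 and 3 and controls 1, 2 and 3. Of 4536 genes tested, 0.0% passed edgeR's quasi-likelihood test at an adjusted p of 0.05, and 132 (2.91%) had an unadjusted p under 0.05. The libraries numbered 3 were processed with another version of Cell Ranger (9.0.1, against 7.0.1) and held pooled, hashtagged mice. With these 2 libraries set against the others as a term in the fit, 2 of 4536 genes passed (0.0441%), Mpo and Prtn3, both higher in knockouts. The knockout 1 member of 61567 UMIs was in this fit. It held 290 of the 307 Prtn3 UMIs and 282 of the 319 Mpo UMIs of knockout 1. That left 17 Prtn3 UMIs in knockout 1, with 11 in knockout 3. The fit with this term was not repeated without that member. Without that member and without the term, Prtn3 had a log2 fold change of 4.18 with an SE of 1.08 (adjusted p = 0.9999 by edgeR). A fit blocked on replicate number called 32 of 6049 genes. DESeq2 on the sums of the first fit called 4 genes (0.0882%), Mpo, Ctsg, Ms4a3 and Mcpt8, all higher in knockouts. The 10 smallest p values by edgeR belonged to Mpo, Ctsg, Ms4a3, 4930519L02Rik, Rnase12, Prss34, Prtn3, Clec12a, Mcpt8 and Myb. All 10 had higher summed levels in both knockout libraries than in any control library, which a choice by small p favours. The share of all genes tested with such a separation was not counted, and none of the 10 passed in the first fit. Mpo, Prtn3 and Ctsg encode granule proteins that granulocyte progenitors make, Ms4a3 marks granulocyte and monocyte progenitors, Myb is a progenitor transcription factor, and Prss34 is a basophil protease.

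**Figure D4:**
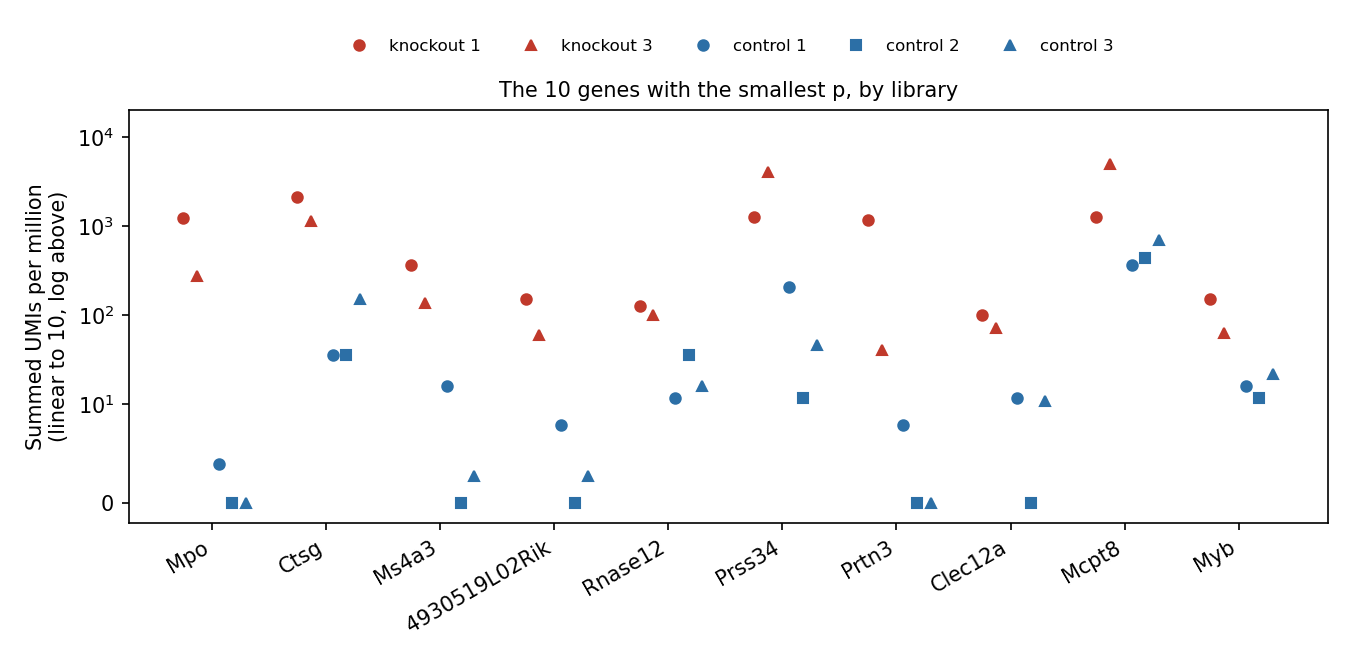
CPM of the UMIs summed over members in each library (linear to 10 and logarithmic above) for the 10 genes with the smallest p, with knockouts in red and controls in blue. For each gene both knockout libraries lie above the 3 control libraries, which a choice by small p favours. The share of all genes tested with this separation was not counted. No gene passed edgeR's test after adjustment with genotype as the only term.

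Mcpt8 reached 332 and 1351 UMIs in the members of knockouts 1 and 3, against 92, 37 and 259 in controls 1, 2 and 3. That is 3133 ± 2646 CPM in knockouts and 496 ± 176 CPM in controls (SD, n = 2 and 3). The log2 fold change of 2.68 had an SE of 0.58 (adjusted p = 0.624 by edgeR). Mcpt8 is among the 10 genes chosen by small p, which favours groups that do not overlap. The share of all genes tested with such groups was not counted. Members over 15000 UMIs held 62.95% and 50.7% of the Mcpt8 UMIs of knockouts 1 and 3. In controls 1, 2 and 3 they held 0%, 0% and 1.16%. These CPM values were not computed without them. The control 1 member of 121472 UMIs held no UMI of Mcpt8 but is in the sum to which the CPM of control 1 is scaled. Because Mcpt8 is a gene of the rule, members were also chosen by the other 4 marker genes (UMIs in at least 2), which gave 41 and 55 in knockouts 1 and 3, against 39, 30 and 62 in controls 1, 2 and 3. There Mcpt8 had a log2 fold change of 2.84 with an SE of 0.54 (adjusted p = 0.404 by edgeR), and 1 of 4427 genes passed (0.0226%), Mpo. The share of these with any Mcpt8 UMI overlapped between the groups, with 58.5% and 61.8% in knockouts 1 and 3, against 33.3%, 23.3% and 66.1% in controls 1, 2 and 3. Its difference of 19.2 percentage points was within the spread between libraries (exact two-sided permutation test, p = 0.4, where 0.1 is the smallest p that 2 against 3 libraries allow). Among members by the full rule, whose choice Mcpt8 had a part in, the difference was 18.4 percentage points. With each of those thinned to 1000 UMIs, which kept 42 of 42 and 54 of 55 members in knockouts 1 and 3, against 38 of 40, 26 of 31 and 61 of 62 in controls 1, 2 and 3, the difference was 12.3 percentage points.

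Prss34 had 328 and 1096 UMIs in knockouts 1 and 3, against 53, 1 and 17 in controls 1, 2 and 3. EdgeR gave it a log2 fold change of 4.78 with an SE of 0.91 (adjusted p = 0.418), and the gene was found in 13.7% of basophil-type members. The UMIs sat in few cells. Members with 10 or more Prss34 UMIs numbered 2 and 4 in knockouts 1 and 3, against 2, 0 and 1 in controls 1, 2 and 3. In knockouts these cells held 201, 123, 475, 272, 205 and 136 Prss34 UMIs, and in controls 37, 12 and 10. The same cells held 64.5% and 84.5% of all Mcpt8 UMIs of knockouts 1 and 3, against 47.8%, 0% and 7.72% in controls 1, 2 and 3. All 9 were basophil type with UMIs of Gata2, Hdc, Cpa3, Ms4a2 and Cd200r3. The pair with the most Prss34, both in knockout 3, had 16 and 9 UMIs of Mki67, a gene of dividing cells, and the first of them had no UMI of Ccl6 or Ccl9. Members with an Mki67 or Top2a UMI numbered 4, 0 and 9 in knockouts 1, 2 and 3, against 4, 2 and 11 in controls 1, 2 and 3.

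Mpo had 319 and 74 UMIs in knockouts 1 and 3, against 1, 0 and 0 in controls 1, 2 and 3. They came from 4 and 2 members of the knockouts and 1 of control 1. The summed ratio was 526 with a 95% counting interval of 93.8 to 20810. That interval takes each UMI as independent and leaves out the spread between cells and between libraries. The fitted log2 fold change of 8.60 (SE 1.03, adjusted p = 0.0824 by edgeR) depends on the prior count. In all, 71.6% of the Mpo UMIs came from 1 knockout 1 cell of 61567 UMIs. That cell also held 625 UMIs of Elane, 290 of Prtn3 and 437 of Ctsg, with none of Cpa3, Fcer1a, Cd200r3 or Gata2, and met the rule through 2 UMIs of Mcpt8 and 1 of Ms4a2. Its profile therefore goes against the label of basophil or mast cell, and with fewer than 3 mast cell markers it counts among the basophil-type members. Without it, Mpo had 37 UMIs in 3 members of knockout 1, and Mpo alone passed edgeR's test, 1 of 4439 genes (0.0225%), at an adjusted p of 0.0270 and a fitted log2 fold change of 6.87 with an SE of 0.75, which also depends on the prior count. Those 3 members of knockout 1 held 31, 5 and 1 Mpo UMIs, and the cells with 5 and 1 had no UMI of Mcpt8 or Cd200r3. A knockout 3 cell with 73 Mpo UMIs held 368 of Mcpt8 and 272 of Prss34.

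Ctsg had 549 and 310 UMIs in knockouts 1 and 3, against 9, 3 and 56 in controls 1, 2 and 3. It was found in 9 and 13 members against 5, 2 and 10. Of these members, 3 and 8 were mast type in knockouts 1 and 3, against 3, 1 and 5 in controls 1, 2 and 3. EdgeR put the difference at 4.35 on the log2 scale, with an SE of 0.67 (adjusted p = 0.192). The knockout 1 cell of 61567 UMIs held 437 of the 549, and without it knockout 1 had 112 Ctsg UMIs (a difference of 3.41 on the log2 scale with an SE of 0.66, adjusted p = 0.414 by edgeR). Ms4a3 had 96 and 37 UMIs in 3 members each of knockouts 1 and 3, against 4, 0 and 1 in controls 1, 2 and 3. The same cell held 86 of the 96, which leaves 10 UMIs in 2 members of knockout 1. Without the 11 members over 15000 UMIs, the smallest adjusted p by edgeR over 2520 genes was 0.758. Those members held 391 of the 394 Mpo UMIs, so too few were left to test Mpo in that fit. With basophil-type members only, Ctsg and Mpo passed, 2 of 3872 genes (0.0517%), both higher in knockouts. That set holds the knockout 1 cell of 61567 UMIs. Without it Ctsg and Mpo passed again, 2 of 3610 genes (0.0554%), with log2 fold changes of 5.44 (SE 0.65, adjusted p = 0.0123) and 6.98 (SE 0.77, adjusted p = 0.0122). The Mpo UMIs then came from 3 and 2 members of knockouts 1 and 3. Members over 15000 UMIs held 31 and 5 of the 37 in knockout 1, and 73 of the 74 in knockout 3.

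**Figure D5:**
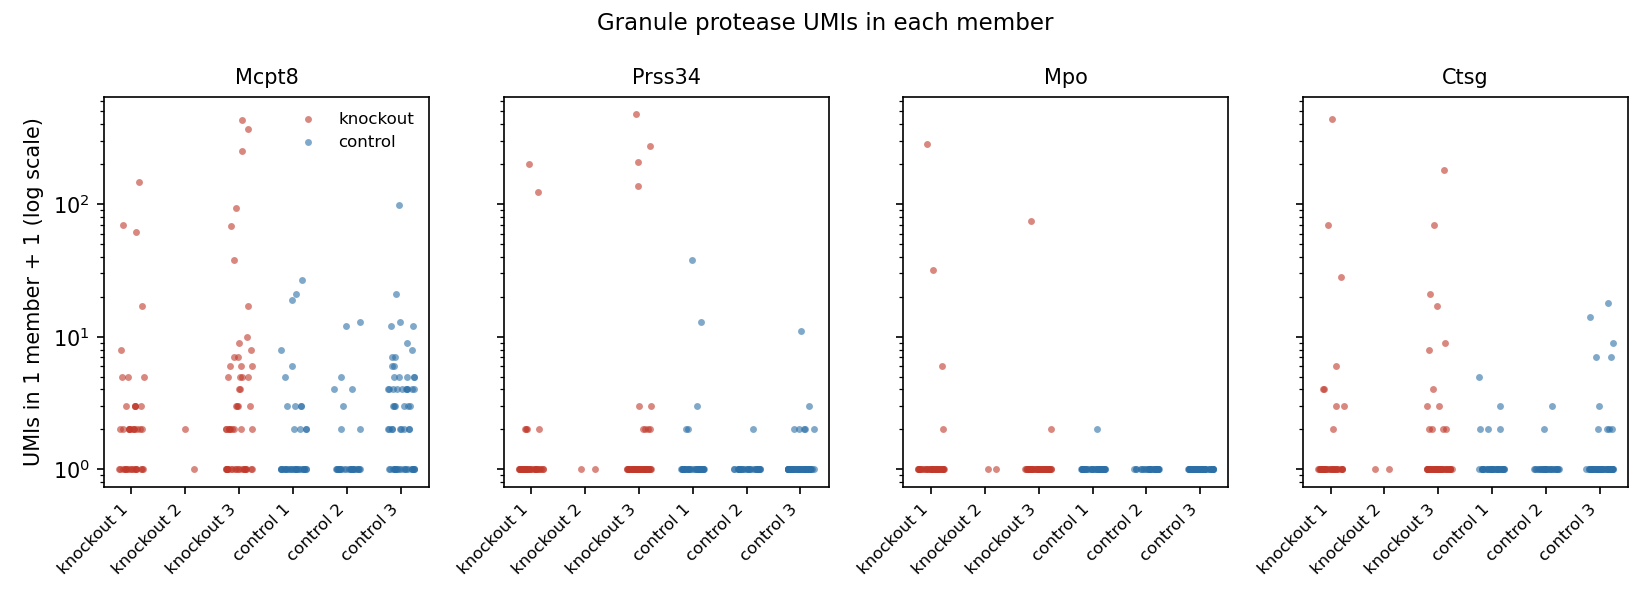
UMIs plus 1 of Mcpt8, Prss34, Mpo and Ctsg in each member on a log scale, by library (knockout red, control blue). Most members of either genotype lie at 0 to 10 UMIs, and the high levels of knockouts 1 and 3 come from a few cells, such as those with 475 and 272 Prss34 UMIs.

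Lists of genes were described by role, with all genes tested as background, whose median log2 fold change was -0.01, with 2252 above 0 and 2284 below. No member of any of the 17 lists passed in either direction. Of 14 granule genes tested, 10 lay above 0 (median 0.22), led by Prss34 and Mcpt8. Of 7 chemokine genes, 5 lay below 0 (median -0.52), with Ccl6 at 2217 ± 285 CPM in knockouts and 3685 ± 2051 in controls (log2 fold change -0.66, SE 0.44, SD over n = 2 and 3). Of 16 genes for chemokine, lipid and histamine receptors and adhesion, 13 lay below 0 (median -0.26). C5ar1 averaged 182 ± 20.5 CPM in knockouts and 457 ± 254 in controls (log2 fold change -1.24, SE 0.52). Of 18 Nr4a and immediate early genes, 13 lay above 0 (median 0.18), with Fos at 721 ± 117 and 466 ± 113 CPM. Of 14 cell cycle genes, 11 lay above 0 (median 0.65), and Hmgb2 averaged 1296 ± 467 and 643 ± 214. The median was -0.01 over 17 genes of IgE receptor signalling, -0.01 over 9 cytokine and growth factor genes, and -0.23 over 12 cytokine receptors.

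The remaining lists held no gene that passed either. Ptgs2, the inducible cyclooxygenase, had 9 and 16 UMIs in knockouts 1 and 3, against 39, 6 and 73 in controls 1, 2 and 3 (log2 fold change -1.63 with an SE of 0.55, adjusted p = 0.999 by edgeR). Mitf had 25 and 20 UMIs in knockouts 1 and 3, against 5, 5 and 14 in controls 1, 2 and 3 (log2 fold change 1.28 with an SE of 0.49, adjusted p = 0.999 by edgeR), and these libraries held 9 and 16 mast-type members, against 5, 4 and 8. Lmo4 averaged 293 ± 58.5 CPM in knockouts and 155 ± 18.2 in controls, and Cdkn1a, a p53 target that halts the cell cycle, 82.3 ± 30.3 and 143 ± 30.4. Medians were 0.02 over 14 mast cell genes, 0.04 over 10 histamine and lipid mediator genes and -0.08 over 12 CD200 and other inhibitory receptor genes. They were -0.14 over 17 lineage transcription factors, -0.16 over 7 interferon response genes and 0.04 over 5 NF-kB targets. For 10 survival and death genes the median was -0.12, and for 19 genes of glycolysis and hypoxia -0.10.

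RNA of other cell types was uneven between the libraries in some lists, and its part in the results was not tested beyond the fits given above. The 4 granulocyte progenitor markers Mpo, Elane, Prtn3 and Ctsg summed to 6852, 0 and 1478 CPM in knockouts 1, 2 and 3, against 47.2, 35.1 and 150 in controls 1, 2 and 3. The knockout 1 cell of 61567 UMIs held 1634 of the 1802 UMIs behind the first value, and without it knockout 1 stood at 834 CPM. These sums include Ctsg of mast-type members, with 9 and 38 UMIs in knockouts 1 and 3, against 7, 2 and 45 in controls 1, 2 and 3. Whether that Ctsg is RNA of other cell types was not tested. The 4 hepatocyte markers summed to 22.8, 0 and 163 CPM in knockouts 1, 2 and 3, against 1183, 70.2 and 381 CPM in controls 1, 2 and 3. These groups overlap, since control 2 lies below knockout 3, while 14 of 15 liver genes tested lay below 0 (median log2 fold change -1.90). Of these, Fgb had 2 and 2 UMIs in knockouts 1 and 3, against 32, 1 and 22 in controls 1, 2 and 3. The control 1 member of 121472 UMIs held 20 UMIs of Alb and 33 of Apoa1, with 2 of Ptprc, the gene of the leukocyte antigen CD45. It also held 26 UMIs of Pecam1 and 36 of Top2a. Of the markers it held 1 UMI of Cpa3, 2 of Fcer1a, 2 of Ms4a2, 7 of Cd200r3 and 10 of Hdc. These are few for its depth, so the label of basophil type is in doubt for this member. No fit left out this member alone. NK cell markers summed to 0 to 956 CPM in knockouts and 0 to 247 in controls, and neutrophil markers to 175 to 489 and 106 to 351. T cell and B cell markers reached at most 72.4 and 11.8 CPM in any library.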

How the data were processed

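Counts of UMIs per gene and barcode were deposited by the authors as raw matrices, made with Cell Ranger 7.0.1 (libraries numbered 1 and 2, called cells only) and 9.0.1 (libraries numbered 3, all barcodes), per the file headers. The submitters' processing notes name 9.0.1 and GRCm39. Samples were grouped by their titles. The members and gene lists were chosen with earlier results of these data known. The genes named were those of the rule, the Nr4a genes and Ncr1, the 10 smallest p values, the 2 smallest p values and 4 highest levels of each list, and the 20 genes highest in members relative to other barcodes. Genes that separate the types, and others given by cell, were added after their values were seen.

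UMIs were summed over members per library and tested with edgeR 4.0.16 (TMM scaling, filterByExpr, quasi-likelihood test, Benjamini-Hochberg adjustment over all genes tested, threshold 0.05) in R 4.3.3. Standard errors were derived from the size of the log2 fold change and its F value. DESeq2 1.42.0 was an alternative. The edgeR fit was tested on simulated data, and the DESeq2 fit was not. Shares were compared over libraries with exact permutation tests. T-type barcodes held at least 2 of 3 T cell markers and neutrophil-type barcodes at least 3 of 5 neutrophil markers (4453 and 575 barcodes). A count of 0 allows up to 3 counts. Intervals and this limit cover counting error only. A hashtag counted as present at 2 times its lower quartile or more, and no doublet caller was run. Hashtag counts stayed out of all totals. The labels do not say that same-numbered libraries share a litter, batch or day. Those numbered 3 share hashtagged pools and a Cell Ranger version, and with 2 pairs the same-numbered libraries 1 and 3 correlated in their deviations at 0.197 and 0.230.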

Additional observations from a re-analysis of the deposited data

How the results depend on the processing

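The difference in the share of members kept its sign and stayed within the spread of libraries under the other marker, depth, mitochondrial, denominator and hashtag choices. It turned to 0.238 percentage points without both libraries numbered 2 and, with each library left out in turn, ran between -2.21 and 0.307. The difference in the share with Mcpt8, a gene of the rule, ran between 10.1 and 30.3 percentage points with a library left out. Against 0 of 4536 genes called by edgeR, DESeq2 called 4 of 4536. EdgeR with no filter on low counts called 1 of 15666 (Mpo). With the mice of the libraries numbered 3 as units, which leaves out members not given to 1 mouse, it called 4 of 2186. Units needed at least 5 members, so the knockout 3 mouse with tag B0311 (2 members) was left out. The 3 control mice entered as separate units though they share 1 droplet library. Basophil-type members only gave 2 of 3872. With the libraries numbered 3 as a term edgeR called 2 of 4536, and without the knockout 1 cell of 61567 UMIs 1 of 4439. Without that cell in basophil-type members it called 2 of 3610, and with members chosen by the 4 markers other than Mcpt8 1 of 4427. The last 5 choices, like the limit of 15000 UMIs and the fit without both libraries numbered 2, were made after seeing the data. The fits under that limit and without those libraries called 0, and under that limit too few Mpo UMIs were left to test Mpo. Leaving out 1 library gave 0 to 5 genes, the 5 without knockout 3, where the lone knockout library is assumed to vary like the controls. With the replicate number as a block, 32 of 6049 genes passed (13 higher, 19 lower), where control 2 has no partner and adds nothing to the fold. The numbers are not known to pair the samples, and the block gave a p of 1 for both shares. Single genes turned their sign as follows. Nr4a1 had a log2 fold change of 0.33 with mice as units, 0.16 without members over 15000 UMIs, 0.12 without the knockout 1 cell of 61567 UMIs, 0.10 with members chosen by the 4 other markers, 0.49 without knockout 3 and 0.16 without control 3 (range with a library left out -1.06 to 0.49). Nr4a3 had -5.46 without knockout 1 and -0.032 without control 1 (-5.46 to 1.64). Il1b had 0.14 with the replicate block, 0.47 with 3 marker genes, 0.33 with Mcpt8-positive members only, and 0.11 without control 2 or both libraries numbered 2 (-7.97 to 0.11). Ifitm2 had -0.0082 with Mcpt8-positive members only and -0.34 with mice as units. Fosb had -0.036 (-0.036 to 1.45) and P4ha1 -0.38 (-0.38 to 1.88) without knockout 3, Nfkbiz -0.02 with all libraries, and Birc3 0.025 without members over 15000 UMIs. The causes were not tested. A gene with no UMI may lie at up to 11.4 and 11.1 CPM in the members of knockouts 1 and 3, against 11.8, 35.1 and 8.05 in controls 1, 2 and 3, and at up to 577 in knockout 2.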

Other observations

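Genes outside the classic markers also separated members from other barcodes or the types from each other, and are given as values, chosen for their high ratio. Csrp3, a LIM protein best known from muscle, was found in 0 of 42 mast-type and 68.4% of basophil-type members, against 0.517% of T-type and 1.22% of neutrophil-type barcodes. It was found in 57.1% and 54.5% of the members of knockouts 1 and 3, against 55.0%, 51.6% and 59.7% in controls 1, 2 and 3. Cdh1, the adhesion molecule E-cadherin, was found in 0 of 42 mast-type and 62.1% of basophil-type members, and Aqp9, a channel for water and glycerol, in 0 of 42 and 66.3%. Slc6a4, the serotonin transporter, was found in 45.2% of mast-type and 19.5% of basophil-type members, against 0.225% of T-type barcodes. Hs6st2, which adds sulfate to heparan chains, was found in 90.5% of mast-type and 0 of 190 basophil-type members, and Rab27b, a GTPase of granule release, in 90.5% and 1.58%. Gzmb, the protease granzyme B, was found in 73.8% of mast-type and 11.6% of basophil-type members. A UMI of Mrgprb1 or of Mrgprb2, the Mas-related receptor that binds basic secretagogues, was found in 32 of 42 mast-type members.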
